A study of Mus musculus with 6 samples.

Results

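The regions described here are the open chromatin peaks that a table of accessible regions in mouse definitive endoderm lists under Foxa1, Foxa2, Foxa3, Sox17 or Cxcr4. These genes are standard markers of the definitive endoderm, the germ layer from which the gut, liver, pancreas and lung arise. The gene column of the authors' deposited table selected 20 of 70494 peaks: 13 at Cxcr4, 4 at Foxa1, 2 at Sox17, 1 at Foxa2 and 0 at Foxa3. The cells came from epiblast stem cells of 1 line, 7H OTX2-dTAG-EGFP (BL6/129 hybrid), in which the transcription factor OTX2 carries a degradation tag and EGFP in both groups. Differentiation used Activin A (40 ng/ml) plus CHIR (3 uM) for 16 h, followed by Activin A (100 ng/ml) plus LDN (100 nM) for 24 h. From the primitive streak stage they received the degrader dTAG13, which removes tagged OTX2, or its solvent DMSO for 24 h. ATAC-seq, which marks open chromatin by insertion of sequencing adapters, was run on 50000 live sorted cells per library, with 3 libraries per group. The series describes the libraries of a group as technical replicates, so p-values measure the spread between these libraries and need not cover separate cultures.

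FOXA1, FOXA2 and FOXA3 are forkhead transcription factors. FOXA1 and FOXA2 are known as pioneer factors, which can bind their sites in closed chromatin and make enhancers of endodermal genes accessible. SOX17 is an HMG-box factor of the SOXF family that is required for the definitive endoderm of the embryo. CXCR4 is the G protein-coupled receptor for the chemokine CXCL12 and is used as a surface marker to sort definitive endoderm. OTX2, the depleted protein, is a homeodomain factor of the anterior epiblast and of anterior endoderm, and binds sites with the letters GGATTA or their complement TAATCC.

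Accessibility was lower after OTX2 depletion at 3 of the 20 peaks, and all 3 lay upstream of Cxcr4. No peak listed under Foxa1, Foxa2 or Sox17 passed the threshold of an adjusted p under 0.05, and none of the 20 was called higher in dTAG13. At an unadjusted p under 0.05 there were 7 of the 20, of which 6 lay at Cxcr4 and 1 at Foxa1, with 5 lower and 2 higher, and 19.5% of all peaks with an adjusted p passed the same threshold. Among all peaks with an adjusted p in the authors' deposited table, 5.26% were called, 3.79% as lower and 1.47% as higher. Their sequences on the plus strand of mm10 (GRCm38.p6) are shown because they carry the called change. Capitals mark matches on either strand to a consensus of a factor family, here FOX (TGTTTAC) and TEAD (GGAATG).

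Cxcr4 peak 1.1 kb upstream, chr1:128593263-128593500: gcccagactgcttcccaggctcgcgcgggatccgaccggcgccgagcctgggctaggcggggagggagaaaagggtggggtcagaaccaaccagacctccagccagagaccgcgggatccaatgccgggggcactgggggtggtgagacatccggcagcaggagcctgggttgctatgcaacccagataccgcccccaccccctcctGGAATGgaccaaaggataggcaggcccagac
Cxcr4 peak 3.3 kb upstream, chr1:128595548-128595688: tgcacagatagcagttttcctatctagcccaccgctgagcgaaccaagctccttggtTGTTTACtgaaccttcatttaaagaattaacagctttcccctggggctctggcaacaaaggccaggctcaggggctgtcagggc
Cxcr4 peak 62.0 kb upstream, chr1:128654146-128654401: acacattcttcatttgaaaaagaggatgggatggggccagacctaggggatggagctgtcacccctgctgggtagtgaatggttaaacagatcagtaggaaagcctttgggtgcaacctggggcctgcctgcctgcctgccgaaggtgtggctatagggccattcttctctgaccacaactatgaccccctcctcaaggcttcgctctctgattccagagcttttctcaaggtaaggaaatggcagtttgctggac

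None of these 3 sequences holds the OTX consensus. Of the 20 peaks, 3 had GGATTA on either strand within 100 bases of the midpoint, 15.0% against 8.85% of all 70494 peaks and 34.1% of all 2622 peaks called lower. Those 3 peaks lay at Foxa1, Sox17 and Cxcr4, and none of them was called. The same letters read backwards (ATTAGG) matched 2 of the 20, 7.09% of all peaks and 16.1% of all 2622 peaks called lower. The other consensus sequences were searched on both strands in the same window. The FOX and TEAD letters each matched 2 of the 20 peaks, beside 5.34% and 11.6% of all peaks. The SMAD consensus CAGACA matched 4 of the 20 and 17.4% of all peaks. The weak Sox17 peak alone among the 20 held the SOX consensus AACAAT, found in 8.84% of all peaks. It also held the one match among the 20 to the GATA letters AGATAA, found in 15.7% of all peaks. No match among the 20 was found in this window for the LHX consensus TAATTA (4.75% of all peaks) or the T-box consensus AGGTGTGA (1.71%). With the 5-letter core GATTA, a choice made after seeing the data, 8 of the 20 peaks matched (40.0%, against 21.8% of all peaks), and again none of the 3 called peaks. Of all 2622 peaks called lower, 58.4% held this core. Among the same 2622, the shares were 30.2% for GATA, 20.7% for SOX, 19.5% for SMAD and 10.7% for LHX. They were 9.69% for TEAD, 8.85% for FOX and 1.56% for T-box. A match is a description of the letters and not of binding. The peaks outside annotated exons with the full consensus read as follows, with GGATTA in capitals.

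Foxa1 peak 8.1 kb downstream of the gene start, chr12:57538766-57538917: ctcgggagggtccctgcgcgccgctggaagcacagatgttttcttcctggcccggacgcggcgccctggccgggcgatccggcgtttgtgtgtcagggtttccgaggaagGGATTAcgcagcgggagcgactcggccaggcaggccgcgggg
Cxcr4 peak 13.7 kb downstream of the gene start, chr1:128578571-128578686: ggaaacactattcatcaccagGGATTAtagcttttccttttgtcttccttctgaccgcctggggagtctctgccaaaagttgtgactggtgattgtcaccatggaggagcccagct

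For every peak the authors' deposited table gives 1 mean normalized count over the 6 libraries, a log2 fold change of dTAG13 over DMSO and its standard error (SE), but no value per library. The group means given below were computed from that mean and that fold change. They are fitted means per library, on the scale of counts divided by size factors, and carry no SD of their own. Sequencing depth per library is unknown. Mean normalized counts of the 20 peaks ranged from 1.98 to 42.1 with a median of 10.3, beside a median of 7.33 over all peaks. All 20 peaks had an adjusted p.

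**Figure D1:**
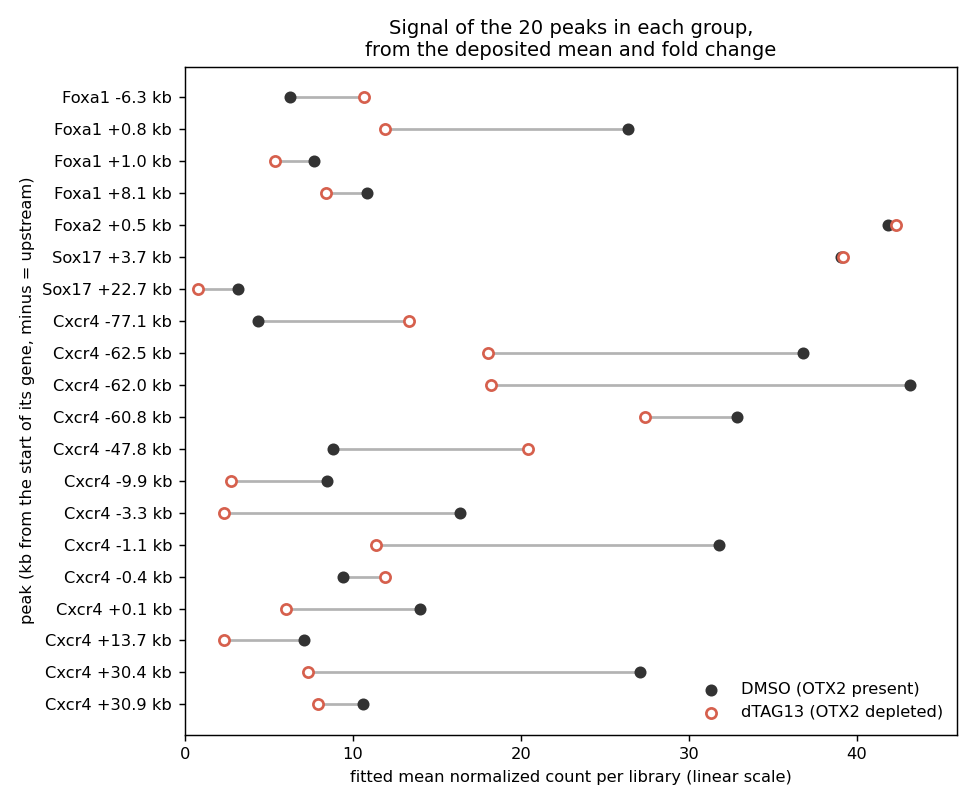
Fitted mean normalized count per library (horizontal axis, linear) of each of the 20 peaks in DMSO (filled points) and dTAG13 (open points). Peaks are named by gene and distance in kb from the gene start. The Foxa2 peak and the stronger Sox17 peak have nearly the same signal in both groups, while most Cxcr4 peaks sit lower in dTAG13.

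Cxcr4 (ENSMUSG00000045382.6, chr1:128588199-128592293, minus strand) had the most peaks of the 5 genes. Only 259 of 26796 genes in the gene column (0.967%) had 13 peaks or more, and 25 of those (9.65%) had at least 3 peaks called lower. Of the 13 Cxcr4 peaks, 10 had a negative and 3 a positive log2 fold change, with a median of -1.22 beside -0.18 over all peaks. Their fitted group means summed to 250.9 normalized counts in DMSO and 149.5 in dTAG13. Of the 13 peaks, 6 were in the pooled DMSO list alone, 1 in the dTAG13 list alone and 6 in both. Over all peaks these shares were 40.1%, 11.8% and 48.2%. Peaks found in 1 list alone were selected where their signal is high, so the median and the sums are not free of that selection. Nor are the fold change and adjusted p of any single peak found in 1 list alone, here and below.

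The peak 3325 bases upstream of the Cxcr4 start was intergenic and 141 bases long. Its fitted mean fell from 16.4 normalized counts in DMSO to 2.36 in dTAG13, so that 14.4% of the fitted signal was left. Against a floor of 3 normalized counts per library, DMSO was at least 5.46-fold higher. The authors' deposited table gives a log2 fold change of -2.80 (SE 0.78, Wald test, adjusted p 0.0145). The 95% interval of that fold change ran from -4.32 to -1.28. Its SE was 1.24 times the median SE of the 5443 peaks whose mean lay within 10% of its own, and larger than that of 95.8% of them. This peak was found in the pooled DMSO peak list and not in the pooled dTAG13 list, and its FOX match is the one printed above.

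The peak 1089 bases upstream of the start, annotated by the authors as promoter, fell from 31.8 normalized counts in DMSO to 11.4 in dTAG13. In the authors' deposited table its log2 fold change was -1.48 (SE 0.42, Wald test, adjusted p 0.0157, 95% interval -2.30 to -0.67). It too was found in the DMSO list alone.

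The third called peak, 61981 bases upstream and intergenic, fell from 43.2 to 18.2 normalized counts. The authors' deposited table gives it a log2 fold change of -1.24 (SE 0.33, Wald test, adjusted p 0.0107, 95% interval -1.90 to -0.59). Unlike the other called peaks, it was present in both pooled lists. It was one of 3 neighbouring peaks. The next, 253 bases farther out, had 36.8 normalized counts in DMSO and 18.1 in dTAG13, with a log2 fold change of -1.03 (SE 0.37) at an adjusted p of 0.0723, as the authors' deposited table lists it. The third of the group, 846 bases on the gene's side, had 32.9 and 27.4 normalized counts, with -0.26 (SE 0.32) at an adjusted p of 0.698, as the authors' deposited table lists it. Whether these neighbours differed from each other was not tested.

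Closest to the Cxcr4 start, the fitted fold changes differed in sign and none was called. A peak 57 bases downstream of the start had 14.0 normalized counts in DMSO and 6.02 in dTAG13, with a log2 fold change of -1.22 (SE 0.62) at an adjusted p of 0.257, as the authors' deposited table lists it. A peak 351 bases upstream had 9.40 and 11.9 normalized counts, with 0.34 (SE 0.56) at an adjusted p of 0.784, as the authors' deposited table lists it. Neither passed the threshold, and the interval of the first, from -2.44 to 0.00, ended near 0. Whether these peaks differed from each other was not tested.

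Farther out, 2 peaks of Cxcr4 had a higher fitted mean in dTAG13. The one 47825 bases upstream had 8.80 normalized counts in DMSO and 20.4 in dTAG13, and the one 77051 bases upstream had 4.35 and 13.4. The authors' deposited table lists log2 fold changes of 1.21 and 1.62, with SEs of 0.50 and 0.63 and adjusted p of 0.136 and 0.107. Both had an unadjusted p under 0.05, as did 6 of the 13 Cxcr4 peaks and 19.5% of the 69128 peaks with an adjusted p, and neither was called. When the median fold change was set to 0 within each decile of GC content, the peak 47825 bases upstream was called higher (log2 fold change 1.55, adjusted p 0.0442).

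The remaining Cxcr4 peaks were not called. Those 9913 bases upstream and 13664 bases downstream of the start, the latter with the OTX consensus printed above, had 8.46 and 7.10 normalized counts in DMSO and 2.76 and 2.34 in dTAG13. The authors' deposited table lists log2 fold changes of -1.61 and -1.60, with SEs of 0.86 and 0.91 and adjusted p of 0.284 and 0.324. The peak 30419 bases downstream had 27.1 normalized counts in DMSO and 7.36 in dTAG13, but its log2 fold change of -1.88 in the authors' deposited table had an SE of 1.07 (adjusted p 0.325). That SE was 2.40 times the median SE of the 3488 peaks whose mean lay within 10% of its own, and larger than that of 99.6% of them. Its neighbour 30854 bases downstream had -0.42 (SE 0.67) at an adjusted p of 0.776, as the authors' deposited table lists it.

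**Figure D2:**
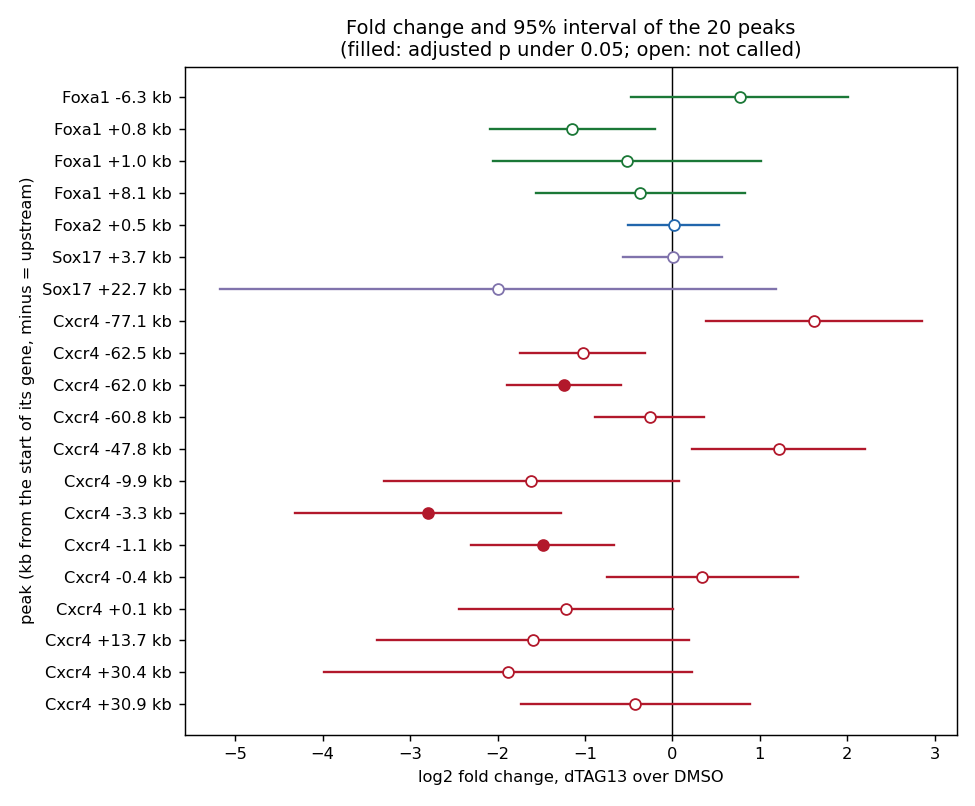
Log2 fold change of dTAG13 over DMSO (horizontal axis) with its 95% interval for each of the 20 peaks, from the authors' deposited table. Filled points have an adjusted p under 0.05. The 3 filled points are Cxcr4 peaks at -2.80, -1.48 and -1.24.

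Sox17 (chr1:4490931-4497354, minus strand) had its strongest peak inside the gene, 3713 bases downstream of the first start site and 37 bases from the start of a short internal transcript (chr1:4493483-4493798). The peak lay on exon sequence and overlapped coding sequence, and 284 of its 316 bases are annotated as untranslated in some transcript. It had 39.1 normalized counts in DMSO and 39.2 in dTAG13. In the authors' deposited table the log2 fold change was 0.003 (SE 0.29, Wald test, adjusted p 0.997). Its 95% interval of -0.56 to 0.57 leaves out a doubling and a halving of signal, and a change of 0.87 would have been needed for a call. This peak also held the OTX consensus. The other Sox17 peak, 22694 bases downstream of the start, rested on 3.17 normalized counts in DMSO and 0.795 in dTAG13. Its log2 fold change of -1.99 in the authors' deposited table had an SE of 1.62 (adjusted p 0.527), so no change under 4.88 could have been called there.

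Foxa2 (chr2:148042877-148046969, minus strand) had a single peak in the gene column, the strongest of the 20. It lay in an intron 549 bases downstream of the first start site and 472 bases from the nearest one (chr2:148046310-148046529). Signal was 41.8 normalized counts in DMSO and 42.3 in dTAG13. The authors' deposited table gives a log2 fold change of 0.02 (SE 0.27, Wald test, adjusted p 0.981, 95% interval -0.50 to 0.54). A change of 0.80 would have been called at this peak. The Foxa2 and Sox17 peaks were thus measured with the smallest errors of the 20, and at both the fold change stayed near 0.

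Foxa1 (chr12:57540628-57546916, minus strand) had 4 weaker peaks, with mean normalized counts of 6.51 to 19.2. The peak over its coding transcript's start, 16 bases away (chr12:57546007-57546203), had 26.4 normalized counts in DMSO and 11.9 in dTAG13. Its log2 fold change in the authors' deposited table was -1.14 (SE 0.48, unadjusted p 0.0175, adjusted p 0.142 by the Wald test). At this SE a change of 1.45 was needed for a call. A neighbouring promoter peak had 7.67 and 5.35 normalized counts, with -0.52 (SE 0.78) at an adjusted p of 0.762, as the authors' deposited table lists it. The peak 8074 bases downstream of the start, with the OTX consensus, had 10.9 and 8.42 normalized counts, and -0.37 (SE 0.61) at an adjusted p of 0.787, as the authors' deposited table lists it. The peak 6277 bases upstream was found in the dTAG13 list alone, with 6.26 and 10.7 normalized counts and 0.77 (SE 0.63) at an adjusted p of 0.531, as the authors' deposited table lists it.

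Foxa3 (chr7:19013284-19023538, minus strand) had no peak in the gene column. A peak 784 bases upstream of its start (chr7:19024157-19024486) was listed under Sympk, the gene on its other side, whose exon it overlaps. That peak had 45.8 normalized counts in DMSO and 49.7 in dTAG13, with a log2 fold change of 0.12 (SE 0.27) by the Wald test of the authors' deposited table, at an adjusted p of 0.851. With it, each of the 5 genes had a peak within 1000 bases of one of its own starts.

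The gene column names 1 gene for each peak and counts noncoding RNAs and pseudogenes, so neighbours of that kind hold much of the surrounding chromatin. Within 100000 bases of the bodies of the 5 genes the table had 88 peaks, of which the column gave 20 to the 5 genes and 68 to others. This window was chosen after seeing the data. At Foxa2, 19 of 20 peaks were listed under other genes, although for all 20 the nearest start of a protein-coding gene was that of Foxa2. At Sox17 this held for 10 of 12 peaks, of which 2 were listed under it. In the 5 windows 6 of the 86 peaks with an adjusted p were called, all lower in dTAG13: the 3 at Cxcr4, 2 at Foxa2 and 1 at Foxa1. That is 6.98% of the 86 peaks, near the 5.26% called among all peaks with an adjusted p (3.79% lower).

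**Figure D3:**
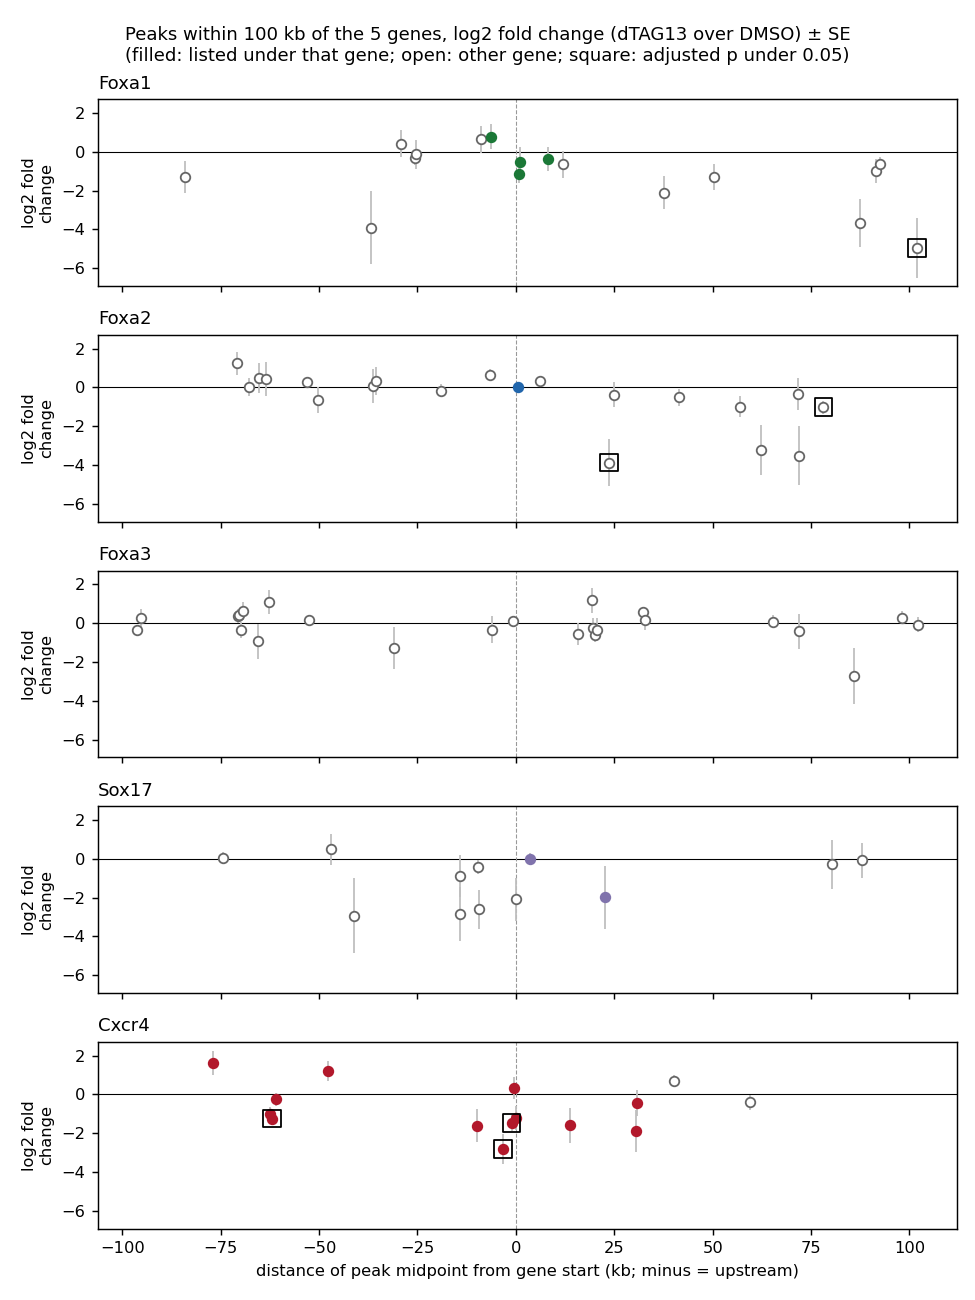
Log2 fold change of dTAG13 over DMSO with its SE (vertical axis) against the distance of the peak midpoint from the gene start in kb, for all peaks within 100 kb of each gene. Filled points are listed under that gene, open points under another, and squares mark an adjusted p under 0.05. Squares appear at Cxcr4, Foxa2 and Foxa1, and most points near Foxa2 and Sox17 are open.

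Both called peaks near Foxa2 lay in introns of 9030622O22Rik, a noncoding gene on the downstream side of Foxa2. Their sequences are shown because the gene column lists them under that gene, while the nearest protein-coding start is that of Foxa2. Whether either peak acts on Foxa2 was not tested. The first holds 1 match to the GATA consensus AGATAA, in capitals. The second is longer than 300 bases, so its central 300 bases are given, without a match to any of the 8 factor consensus sequences.

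Peak 23.6 kb downstream of the Foxa2 start, chr2:148023226-148023438: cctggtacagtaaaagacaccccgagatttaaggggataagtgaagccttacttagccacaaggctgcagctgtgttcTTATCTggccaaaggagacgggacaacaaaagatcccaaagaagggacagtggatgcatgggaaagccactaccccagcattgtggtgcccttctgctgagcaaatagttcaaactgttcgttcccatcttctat
Peak 78.1 kb downstream of the Foxa2 start, chr2:147968676-147968975: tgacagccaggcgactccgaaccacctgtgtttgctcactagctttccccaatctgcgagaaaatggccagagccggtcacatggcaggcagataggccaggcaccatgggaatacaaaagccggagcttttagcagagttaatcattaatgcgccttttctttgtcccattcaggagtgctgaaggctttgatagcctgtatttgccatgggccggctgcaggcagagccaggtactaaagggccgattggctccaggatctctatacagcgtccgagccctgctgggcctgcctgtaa

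The peak 23637 bases downstream fell from 11.1 normalized counts in DMSO to 0.763 in dTAG13. It was found in the DMSO list alone. Against a floor of 3 normalized counts per library, DMSO was at least 3.70-fold higher. The authors' deposited table gives a log2 fold change of -3.86 (SE 1.20, Wald test, adjusted p 0.0335), and with under 1 count per library in dTAG13 its interval was wide, from -6.22 to -1.51. The peak 78143 bases downstream fell from 41.2 to 20.3 normalized counts, with -1.02 (SE 0.32) by the Wald test of the authors' deposited table, at an adjusted p of 0.0393. Setting the median of each GC decile to 0 ended both calls (adjusted p 0.0685 and 0.135), and setting the median of all peaks to 0 ended the second (adjusted p 0.0980). The strongest peak of this window, 6164 bases downstream of the Foxa2 start (chr2:148040542-148041067), had 54.7 normalized counts in DMSO and 69.6 in dTAG13. Its log2 fold change of 0.35 (SE 0.23) at an adjusted p of 0.404, as the authors' deposited table lists it did not pass. Of the 20 peaks in the window, 10 had a negative and 10 a positive fold change.

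The called peak of the Foxa1 window lay 101903 bases downstream of the Foxa1 start, in introns of Mipol1 and Gm16246. It was found in the DMSO list alone. It is printed because, of the 6 called peaks in the 5 windows, it was the one with the OTX consensus, here as TAATCC between a pair of GATA matches, all in capitals.

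Peak 101.9 kb downstream of the Foxa1 start, chr12:57444945-57445081: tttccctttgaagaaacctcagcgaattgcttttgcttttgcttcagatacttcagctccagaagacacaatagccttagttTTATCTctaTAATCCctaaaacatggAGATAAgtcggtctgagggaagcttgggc

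Its signal was 6.38 normalized counts in DMSO and 0.207 in dTAG13, near the lowest fitted level in the table. In all, 2664 peaks had a fitted dTAG13 mean under 0.22, a level treated here as no reads. Against a floor of 3 normalized counts per library, DMSO was at least 2.13-fold higher. The authors' deposited table gives it an adjusted p of 0.0333, and 0.0978 was obtained when medians were set to 0 within GC deciles. With a mean of 3.29 normalized counts it was not tested under a filter of at least 5.

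Near Sox17, 10 peaks were listed under other genes and none was called by the authors' Wald test. Of the 9 with an adjusted p, 2 had an unadjusted p under 0.05, beside 19.5% of all such peaks. These were a peak 14141 bases upstream, with 5.44 normalized counts in DMSO and 0.754 in dTAG13 (unadjusted p 0.0400), and the weaker of a pair of peaks about 9 kb upstream. The weaker of that pair, 9349 bases away, had 9.81 and 1.61 normalized counts, with a log2 fold change of -2.60 (SE 0.99) at an adjusted p of 0.0975, as the authors' deposited table lists it. The stronger, 9593 bases away, had 28.2 and 21.3, with -0.41 (SE 0.37) at an adjusted p of 0.572, as the authors' deposited table lists it. The peak 83 bases upstream of the first Sox17 start, listed under Gm37587, had 6.59 normalized counts in DMSO and 1.55 in dTAG13, with a log2 fold change of -2.09 (SE 1.10) at an adjusted p of 0.274, as the authors' deposited table lists it. At none of the 24 peaks near Foxa3 was a call made, and 1 had an unadjusted p under 0.05, beside the same 19.5%. Their median log2 fold change was -0.01. In the Foxa1 window 5 of 17 peaks had an unadjusted p under 0.05, all lower, and in the Foxa2 window 6 of 20, with 4 lower and 2 higher.

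**Figure D4:**
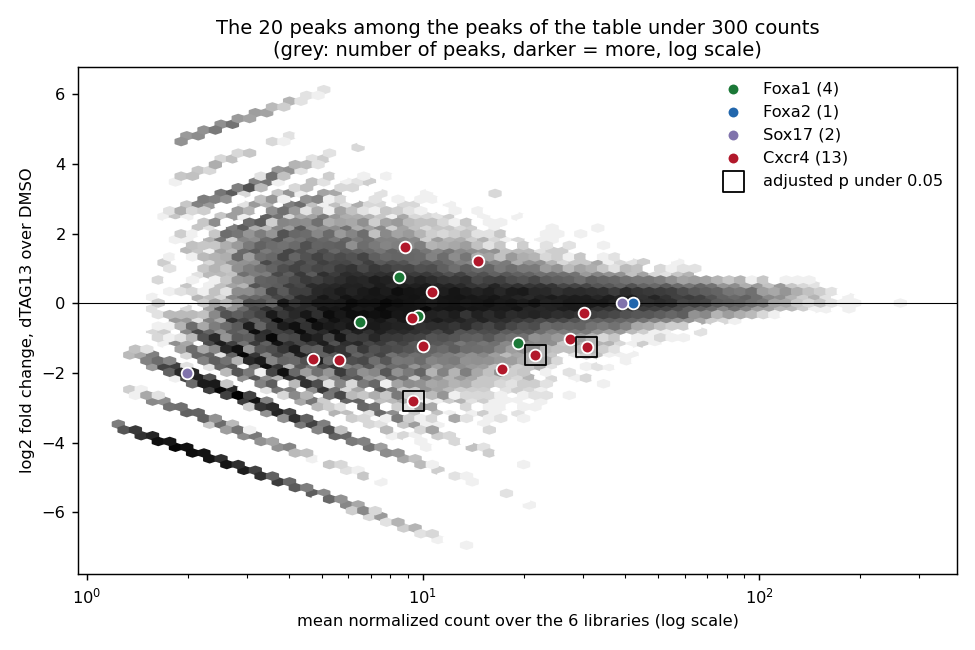
Log2 fold change (vertical axis) against mean normalized count (horizontal axis, log scale) for the peaks of the table under 300 counts (grey) and the 20 peaks (coloured by gene). The strong Foxa2 and Sox17 peaks lie at 0.02 and 0.003, and the squares mark the 3 called Cxcr4 peaks.

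Position and list membership of the 20 peaks were close to those of all peaks. By midpoint, 6 of the 20 lay within 1000 bases of a start site of their own gene, and 31.8% of all peaks lay that close to any start site. Both pooled lists held 10 of the 20, the DMSO list alone 8 and the dTAG13 list alone 2, beside 48.2%, 40.1% and 11.8% of all peaks. Median length was 146.5 bases against 131, and median GC content 56.5% against 54.8%. Foxa1 stood at the GC-rich end, with 57.6 to 89.7%.

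Other genes of the endoderm network were listed with earlier results of these data known. Of 37 such genes 36 had peaks, and of their 149 peaks 148 had an adjusted p. Of these, 11 were called lower and 1 higher, which is 8.11% of the 148 beside 5.26% of all peaks with an adjusted p. Their median log2 fold change was -0.28, beside -0.18 over all peaks. Except the strongest Prdm1 peak and those of Mixl1 and Dkk1, all called peaks of these genes were found in the DMSO list alone. They carry the selection described for Cxcr4. Among the 14 regulators, 6 of 68 peaks with an adjusted p were called lower, in 4 genes (8.82%, beside 3.79% of all peaks with an adjusted p). Prdm1, which encodes the repressor BLIMP1, had 3 of them, the strongest falling from 60.1 to 17.2 normalized counts (in the authors' deposited table a log2 fold change of -1.80 with an SE of 0.35 and an adjusted p of 0.000134). A second Prdm1 peak fell from 22.3 to 5.84 normalized counts. The third had 7.98 in DMSO and was near the lowest fitted level in dTAG13, where a floor of 3 normalized counts per library gives a signal at least 2.66-fold higher in DMSO. A peak of Smad2, a transducer of NODAL and activin signals, fell from 21.3 to 3.09 normalized counts, and one of Hnf4a, a nuclear receptor of liver and gut, from 13.4 to 2.31. Against the same floor, the Hnf4a peak was at least 4.48-fold higher in DMSO. The call in the other direction was at Mixl1, a homeobox gene of the primitive streak, with 41.7 normalized counts in DMSO and 83.2 in dTAG13. Gata4, a zinc finger factor of endoderm, had 15 peaks, and Eomes, a T-box factor, had 7, none of them called. Their median log2 fold changes were -0.95 for Gata4 and -0.20 for Eomes.

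Of the 4 ligands and antagonists, only Dkk1, a WNT antagonist, had a called peak, with 62.5 normalized counts in DMSO and 30.5 in dTAG13. It was 1 of 14 peaks of these genes (7.14%, beside 5.26% called among all peaks with an adjusted p). None of the 25 peaks of 7 genes of CXCR4 signalling was called or had an unadjusted p under 0.05, beside 5.26% and 19.5% of all peaks with an adjusted p. These included the 4 peaks of Cxcl12, the ligand of CXCR4, with a median log2 fold change of 0.33, and the 3 of Ackr3, the other CXCL12 receptor, with -0.05. Sox7 and Sox18, the other members of the SOXF family, had 3 peaks and no call, with 1 at an unadjusted p under 0.05. Among 10 genes listed as gut targets of FOXA and SOX17, 4 of 38 peaks were called lower (10.5%, beside 3.79% of all peaks with an adjusted p): 2 at Cdh1, which encodes E-cadherin, and 1 each at Krt18 (41.9 normalized counts in DMSO, 10.2 in dTAG13), a keratin, and Ttr (18.4 and 4.97), which encodes transthyretin. Both Cdh1 peaks were near the lowest fitted level in dTAG13, so against the same floor DMSO was at least 6.10-fold and 3.89-fold higher.

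Open promoters did not separate the labelled cell type from others. A peak within 1000 bases of a start was found at 4 of 5 epiblast markers (not at Nanog), 3 of 5 mesoderm markers (not at Mesp1 or Msgn1), 3 of 3 neural markers and 3 of 4 markers of extraembryonic endoderm (not at Thbd). Summed fitted counts over the peaks of these lists were 135.8 in DMSO and 94.9 in dTAG13 for epiblast, 111.2 and 105.1 for mesoderm, 152.6 and 169.1 for neural and 209.7 and 155.0 for extraembryonic endoderm, beside 386.2 and 268.2 for the 5 genes. Calls were 2 lower and 1 higher among 10 epiblast peaks, 2 lower among 16 extraembryonic endoderm peaks, 1 higher among 11 neural peaks and 0 among 10 mesoderm peaks. Of all peaks with an adjusted p, 3.79% were called lower and 1.47% higher, and whether these short lists differ from that was not tested. Peaks found in 1 pooled list alone were not removed from the sums and medians. The median log2 fold change of the epiblast peaks, -0.77, equalled that of the 20 peaks to 2 decimals, and it was -0.36 for extraembryonic endoderm, -0.16 for mesoderm and -0.11 for neural peaks. The part of any change in cell composition in the Cxcr4 result was not tested. In bulk samples, fewer cells with an open site and a less open site per cell cannot be told apart.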

How the data were processed

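ATAC-seq peaks of 3 DMSO and 3 dTAG13 libraries were used as deposited. Per the submitters' processing notes, fastp, Bowtie2, MACS2, featureCounts, HOMER 4.11 and ChIPseeker were used on mm10. Read filters and any shift of read ends to the insertion site are not given in the sources used here. The authors' deposited signal is a mean normalized count per peak, under column names of the kind DESeq2 writes. The log2 fold changes, their SE and the p-values with adjusted values were deposited by the authors. The deposited score per peak equals fold change over SE, with a largest difference of 8.72e-07. The pooled peak lists hold positions.

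Peaks were selected by the gene column. Group means, 95% intervals from the SE, and the change needed for a call (3.01 SE) were computed from the table, and no test was run on libraries. Genes and sequences came from GRCm38.p6 with GENCODE M21. Motifs were sought within 100 bases of each midpoint, and list overlaps needed 1 base. Full values are given for promoter peaks, strongest peaks, smallest p and all calls among the 20 peaks, and each listed endoderm gene with a call is named, except 1 that is not reported here. Members and lists were chosen with earlier results of these data known. Alternatives changed the filter on weak peaks, the zero point, the threshold and the gene assignment. Python 3.11.15 with numpy 2.4.6, pandas 2.3.3, scipy 1.17.1 and matplotlib 3.10.9 was tested on simulated data of this comparison, made with the deposited SEs. There, 200 of 200 changed and 14 of 68928 unchanged peaks were called. The planted changes were far larger than the 3.01 SE needed for a call, so finding them all checks the code alone. How often a change of the size seen at the called Cxcr4 peaks would be found was not tested.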

Additional observations from a re-analysis of the deposited data

How the results depend on the processing

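All 3 called Cxcr4 peaks kept their direction and their call under the 7 alternatives run (2 filters on weak peaks, 3 zero points, 2 thresholds). The 2 thresholds could not end these calls, since 1 is looser and the deposited fold changes already pass the other. Only the 3 zero points alter a fold change, so only they could have changed a direction. Their log2 fold changes ranged from -1.58 to -1.30 at 1.1 kb, -2.89 to -2.46 at 3.3 kb and -1.34 to -1.01 at 62.0 kb upstream, with a largest adjusted p of 0.0485. In 3 settings there were 4 calls: the peak 62.5 kb upstream with the median of both-list peaks at 0 or an adjusted p under 0.1, and the one 47.8 kb upstream with GC-decile medians at 0. Over all peaks the share of lower calls was 72.1%, 51.2% with the overall median at 0, 80.0% with both-list peaks at 0 and 38.0% within GC deciles. Called peaks rose from 3 to 6 by the nearest protein-coding start site and to 6 within 100000 bases, both chosen after seeing the data, because more peaks are counted. The core GATTA gave 8 matches instead of 3. In the endoderm list 12 calls became 21 at an adjusted p under 0.1. No paired analysis was possible because the files used hold no values of single libraries, and leaving out replicates was not run for that reason. Weak peaks limit the rest: 62.7% of all peaks had a mean normalized count under 10.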

Other observations

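Columns headed DEGdown (rank10) and DEGup (rank10) mark genes in the authors' deposited table. Of the 4 genes with peaks here, Sox17 carries the first mark, and Cxcr4, whose peaks include the 3 calls, carries neither. The strong Sox17 peak had a log2 fold change of 0.003, and the weak peak 83 bases upstream of the first start had -2.09 (SE 1.10). Within 100000 bases of Sox17, 9 of 12 peaks had a negative and 3 a positive fold change, and none was called. Whether accessibility near Sox17 goes with its mark was not tested. How the marks were made is not given in the sources used here. Further columns, C1 to C4, mark peaks called in 1 direction each. The Cxcr4 peaks 1.1 and 62.0 kb upstream are among 1091 peaks marked C1 (median log2 fold change -2.53) and the one 3.3 kb upstream among 1508 marked C2 (median -4.23), in the authors' deposited table.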
